A study of Homo sapiens with 12 samples.

Results

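The labelling of microRNAs (miRNAs) by 4-thiouridine (4SU) alone, in the absence of splicing inhibition, was described in Huh7, an established human hepatocellular carcinoma cell line. 8 of the 12 SLAMseq libraries of the series were used. The 4 Control libraries came from cells given the solvent DMSO without 4SU. The 4 DMSO libraries came from cells given DMSO and 500 µM 4SU for 4 h. Each of 4 independent experiments, A to D (replicate numbers 1 to 4 of the labels), held both conditions, and the 4 libraries with the splicing inhibitor pladienolide B enter only the alternative fits of all 12. The miRNAs described are the 164 of 2652 in the tables that had over 100 CPM (counts scaled to a common library total) in all 8 libraries. They held between 98.8% and 99.0% of the reads of each library.

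A miRNA is cut as a hairpin from a primary transcript by the Microprocessor and trimmed by Dicer to a duplex. Usually 1 strand is kept in Argonaute and the other is discarded, so most mature miRNAs are long lived while many opposite strands turn over fast. 4SU replaces uridine in RNA made during labelling, and alkylation with iodoacetamide makes the reverse transcriptase read it as C, so a T>C conversion in a read marks a newly made molecule. miR-122 is the major miRNA of hepatocytes, miR-21 is abundant in many tumours, and the miR-17-92a and miR-106b-25 clusters are polycistrons driven by MYC.

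The mature sequences that carry the results are given from RefSeq (GRCh38.p14), 5′ to 3′, with the seed (bases 2 to 8, the part that pairs with target mRNAs) in capitals. The first set holds minor strands from among the fast-labelled miRNAs, with miR-4521 and the major strand miR-181a-5p, and the major strands miR-92a-3p, miR-25-3p and miR-30e-5p of the same hairpins stand in the second set.
miR-181a-3p: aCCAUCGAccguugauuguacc
miR-181a-2-3p: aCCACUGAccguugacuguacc
miR-181a-5p: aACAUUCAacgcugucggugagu
miR-92a-1-5p: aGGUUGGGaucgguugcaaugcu
miR-25-5p: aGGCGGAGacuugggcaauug
miR-4521: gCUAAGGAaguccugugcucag
miR-30e-3p: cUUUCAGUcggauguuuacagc

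The second set holds miRNAs that share the seed AUUGCAC or GUAAACA and still differed widely in labelling.
miR-92a-3p: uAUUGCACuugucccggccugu
miR-92b-3p: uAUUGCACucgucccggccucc
miR-25-3p: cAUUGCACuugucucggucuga
miR-32-5p: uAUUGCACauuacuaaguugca
miR-30a-5p: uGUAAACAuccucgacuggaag
miR-30c-5p: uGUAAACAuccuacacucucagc
miR-30e-5p: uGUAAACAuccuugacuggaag

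The third set holds abundant miRNAs with a low T>C rate or no conversion, with both strands of miR-122 for comparison.
miR-26a-5p: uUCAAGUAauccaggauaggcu
let-7a-5p: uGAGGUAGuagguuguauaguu
miR-140-3p: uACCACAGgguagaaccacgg
miR-122-5p: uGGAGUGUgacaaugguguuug
miR-122-3p: aACGCCAUuaucacacuaaaua

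The libraries held 1667668 to 2393680 miRNA reads in Control and 1968612 to 3880241 in DMSO. Of the labels' cell type, all 4 hepatocyte miRNAs listed were among the 164, with miR-192-5p at 14346 to 19806 CPM and miR-194-5p at 21871 to 32713 CPM. Among markers of other cells, those of blood, muscle and neurons were the lowest in sum. The 5 blood cell miRNAs were at 0.418 to 3.60 CPM in Control and 3.09 to 7.88 CPM in DMSO. The 3 muscle miRNAs were at 0 to 2.09 and 0.985 to 10.2 CPM. For 2 neuronal miRNAs the sum was 8.99 to 16.3 CPM in Control and 14.7 to 54.9 CPM in DMSO. The 4 mesenchymal miRNAs summed to 116 to 173 CPM and 104 to 141 CPM. Of the 2 endothelial miRNAs, which summed to 412 to 536 CPM and 462 to 655 CPM, miR-126-3p accounted for 385 to 632 CPM.

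The T>C conversion rate, the percent of sequenced T positions read as C, was higher with 4SU across most of the 164 miRNAs. Without 4SU the mean rate over miRNAs was 0.0232% in experiment A, 0.0264% in B, 0.0250% in C and 0.0211% in D. With 4SU it was 0.436%, 0.482%, 0.451% and 0.465%. The conditions did not overlap, and the means differed 19.2-fold, 0.459% ± 0.0199 against 0.0239% ± 0.00229 (SD, n = 4). An exact two-sided permutation test of the 4 against 4 libraries gave p = 0.0286, the smallest that 70 labelings allow, and exact sign flips over the 4 experiments gave p = 0.125, likewise the smallest possible with 16 flips. The rate of each experiment's Control library was then subtracted from its DMSO library, which left 0.435% ± 0.0192 (SD, n = 4) and is called the background-subtracted rate from here on. With conversions pooled over all miRNAs, which weights them by reads, it was 0.240%.

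By edgeR's quasi-likelihood test on conversions with Benjamini-Hochberg adjustment, the rate was higher with 4SU in 132 of the 164 miRNAs (80.5% of those tested, adjusted p under 0.05) and lower in 1 (0.610%). The other 31 did not pass. The 4 DMSO rates lay above all 4 Control rates in 113 miRNAs, and 121 were higher in 4 of 4 experiments. Depth sets a limit here, because 57 to 74 of the 164 miRNAs had no conversion at all in a given Control library and 12 to 27 had none in a given DMSO library.

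Labelling was very uneven. The median background-subtracted rate was 0.169%, the middle quartiles ran from 0.0656% to 0.368%, and 16 miRNAs exceeded 1%, of which 6 exceeded 2%. Synthesis, 4SU incorporation and decay during labelling cannot be told apart in these rates. Between single experiments, Spearman's rho over the 164 miRNAs was 0.865 for A against B and 0.797 for C against D, and Pearson's r 0.812 and 0.818. For pairs of experiments the mean of A and B was related to that of C and D with Spearman's rho 0.896 and Pearson's r 0.979, a description over miRNAs that share libraries.

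miR-181a-3p, the strand opposite miR-181a-5p in the hairpin of MIR181A1 (GRCh38.p14, chr1:198859069-198859090, minus strand, in an intron of the lncRNA MIR181A1HG), had the highest rate. Its rates were 0%, 0.0708%, 0.0286% and 0% in Control and 7.87%, 7.01%, 9.19% and 7.67% in DMSO for experiments A to D, and the groups were far apart. The background-subtracted rate was 7.91% ± 0.925 (SD, n = 4, edgeR adjusted p = 3.03e-12). In terms of molecules, 43.8%, 39.6%, 53.0% and 41.6% of its reads carried a conversion in the DMSO libraries.

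The second was miR-92a-1-5p, the strand opposite miR-92a-3p at the 3′ end of the miR-17-92a cluster (chr13:91351324-91351346, plus strand, in an exon of the lncRNA MIR17HG). Its DMSO rates were 5.47%, 6.13%, 5.46% and 6.07%, against 0.00917% to 0.0410% in Control, and 29.1% to 34.6% of its reads carried a conversion. Next in order with tight replicates came miR-181a-2-3p (3.76% ± 0.390), miR-25-5p (3.42% ± 0.459) and miR-92b-3p (2.94% ± 0.261), each SD over 4 experiments. miR-181a-2-3p is made from MIR181A2 in an intron of the lncRNA MIR181A2HG (chr9:124692518-124692539, plus strand). miR-25-5p lies with the rest of the miR-106b-25 cluster in an intron of MCM7, a subunit of the replicative helicase (chr7:100093610-100093630, minus strand). miR-331-5p (1.82% ± 0.862), miR-339-3p (1.60% ± 0.192), miR-93-3p (1.55% ± 0.574) and miR-30a-5p (1.46% ± 0.226) completed the 10 highest, and neighbours in that lower range did not differ beyond their spread.

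miR-4521 was also among the 10 highest but its rate depended on the experiment. The DMSO rates were 0.883% in A, 8.46% in B, 0.631% in C and 7.95% in D, against 0.0400% to 0.113% in Control, so that the mean of 4.41% had an SD of 4.31. All 4 DMSO rates exceeded all Control rates, yet A and C were far below B and D. The share of its reads with a conversion was less uneven, 28.6%, 42.6%, 25.9% and 46.8%. Fewer conversions than converted reads were listed in all 4 DMSO libraries, 39 for 306 reads in A, 169 for 211 in B, 7 for 79 in C and 83 for 137 in D, whereas the median over 124 miRNAs with at least 30 converted reads was 1.03 conversions per converted read. Covered T positions per miR-4521 read were 4.96 to 4.99 in Control and lower in DMSO, 3.56 to 4.13. The authors' workflow masks positions where C exceeds a set fraction of reads, and its part in these values was not tested.

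**Figure D1:**
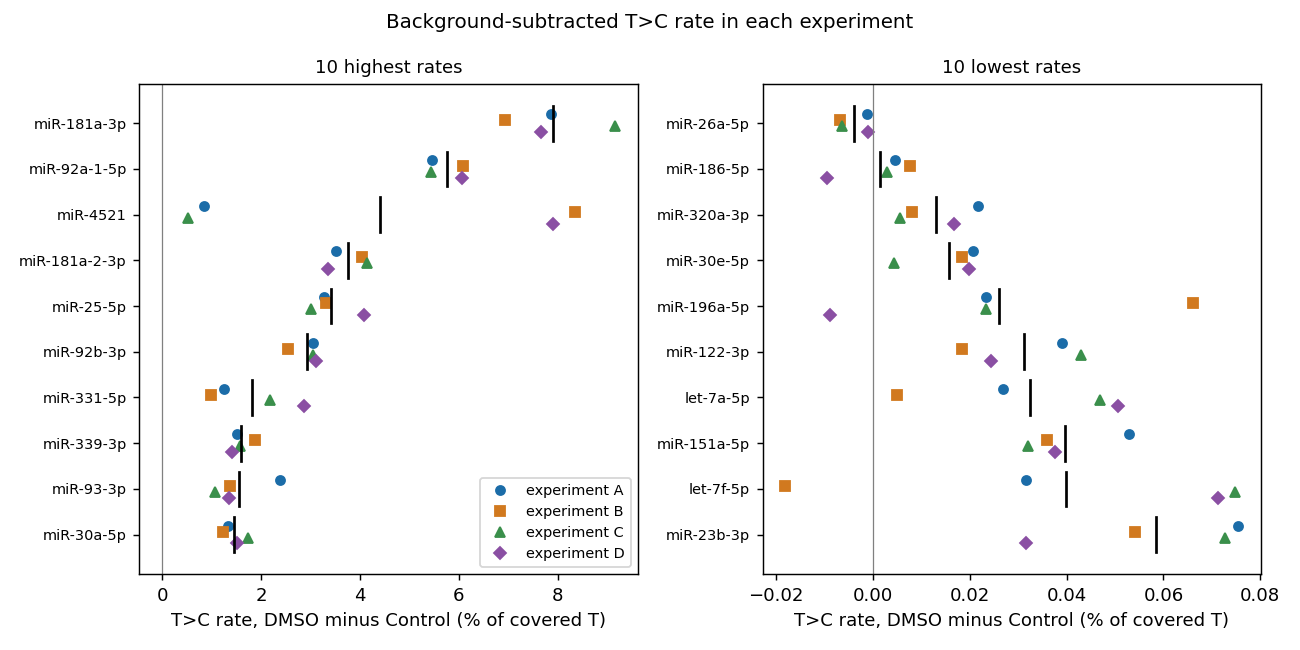
Background-subtracted T>C rate (DMSO minus Control, percent of covered T positions, x axis) in experiments A to D for the 10 highest (left) and the 10 lowest with at least 100000 covered T positions (right). Points are experiments and black bars their means; miR-181a-3p stands highest at 7.91%, miR-4521 splits into 2 low and 2 high values, and the right axis covers under 0.1%.

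At the other end were abundant miRNAs with low background-subtracted rates. Among the 58 miRNAs with at least 100000 covered T positions in the 4 DMSO libraries, the 10 lowest background-subtracted rates ran from -0.00384% to 0.0585%. They were miR-26a-5p, miR-186-5p, miR-320a-3p, miR-30e-5p, miR-196a-5p, miR-122-3p, let-7a-5p, miR-151a-5p, let-7f-5p and miR-23b-3p. All of them except miR-26a-5p, miR-186-5p and let-7f-5p were called higher with 4SU. The calls of miR-320a-3p, miR-196a-5p and let-7a-5p were lost in some alternative fits. For miR-186-5p, at 6894 to 8662 CPM, the DMSO rates of 0.0155%, 0.0169%, 0.0117% and 0.00332% overlapped the Control rates of 0.00877% to 0.0128%, and the test did not separate them (edgeR adjusted p = 0.658). miR-30e-5p, at about the read level of miR-7-5p, reached 0.0243%, 0.0226%, 0.0122% and 0.0223% with 4SU against 0.00258% to 0.00793% without. The difference of 0.0158% ± 0.00771 (SD, n = 4) passed the test (edgeR adjusted p = 4.03e-05), with no overlap between the groups, and is small beside the 0.582% of miR-7-5p.

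miR-26a-5p, a miRNA of 37750 to 57907 CPM whose 2 genes lie in introns of the phosphatase genes CTDSPL and CTDSP2, was the exception in direction. It had 99 conversions at 2305853 covered T positions without 4SU and 24 at 3429721 with 4SU. The Control rates were 0.00213%, 0.00709%, 0.00637% and 0.00230%, and the DMSO rates 0.000979%, 0.000234%, 0% and 0.00133%, lower in 4 of 4 experiments without overlap (edgeR log2 fold change -2.69, adjusted p = 0.000188). 98.7% of its reads mapped to more than 1 place.

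6 miRNAs had no conversion in any of the 8 libraries: miR-30b-5p, miR-140-3p, miR-574-3p, miR-320b, miR-1260b and miR-6777-5p. The depth behind these zeros differs. With 3 conversions as the limit of a count of 0, the 58200 covered T positions of miR-30b-5p allow a rate of up to 0.00516%, the 25726 of miR-140-3p 0.0117% and the 21518 of miR-574-3p 0.0139%. For miR-6777-5p, with 1.00 covered T position per read, only 0.157% can be stated. These limits cover counting error only. Those of miR-30b-5p, miR-140-3p and miR-574-3p lie below the mean Control rate of 0.0239%. Whether conversions could be counted at these miRNAs at all was not tested.

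Abundance did not order the miRNAs by T>C rate. In quartiles of Control reads, from 113 to 299 CPM upward, the median background-subtracted rate was 0.129%, 0.187%, 0.155% and 0.166%. Over the 152 miRNAs with a rate above 0, Spearman's rho between rate and Control CPM on log scales was -0.0699 and Pearson's r -0.0808. The share of miRNAs called higher grew with reads, from 63.4% in the lowest quartile to 78.0%, 85.4% and 95.1%. Of the 16 miRNAs over 1%, 4 fell in the lowest quartile, 7 and then 4 in the next, and 1 (miR-181a-5p) in the highest. The largest rate of each quartile, in the same order, was 1.82%, 7.91%, 4.41% and 1.02%. Each miRNA had to exceed the minimum CPM with 4SU as well, and 9 of the 16 had fewer reads with 4SU. The part of this filter in the count of the lowest quartile was not tested.

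**Figure D2:**
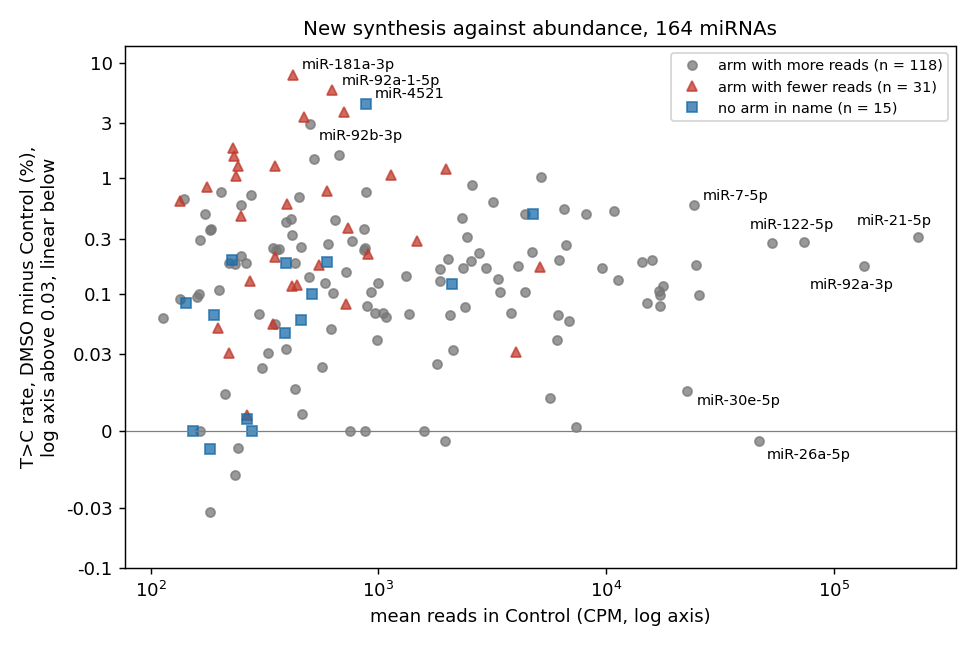
Background-subtracted T>C rate (percent, mean of 4 experiments, y axis, log above 0.03 and linear below) against mean Control reads (CPM, log x axis) for 164 miRNAs, by strand. Triangles, the strands with fewer reads of a hairpin, fill much of the top at low read levels, while the 10 miRNAs with the most reads range from 0.582% (miR-7-5p) to -0.00384% (miR-26a-5p).

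The number of T positions per read had a weak inverse relation to the rate. The median was 0.268% for the 29 miRNAs with 4 or fewer covered T positions per read, 0.172% for 72 with 5 or 6, 0.183% for 42 with 7 or 8, and 0.0680% for 21 with 9 or more. Spearman's rho was -0.267 and Pearson's r -0.312 over 152 miRNAs. Counted as the share of reads with a conversion, which grows with the number of T, the same classes had medians of 0.852%, 0.882%, 1.22% and 0.596%, and rho was -0.0680. The let-7 family and miR-196a-5p belong to the U-rich end.

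The 2 strands of a hairpin often differed. In 25 hairpins with a single gene both strands were above 100 CPM, and the strand with fewer Control reads, here the minor strand, had the higher rate in 15 and the lower in 10. It was higher in 4 of 4 experiments in 13 hairpins and lower in 4 of 4 in 6. The median ratio of minor to major was 2.68. The rate is relative to the reads of each strand. Multiplied by DMSO CPM, it was lower for the minor strand in 18 of the 25 hairpins, with a median ratio of major to minor of 3.69. For 6 further pairs whose major strand comes from several hairpins, the minor strand was higher in 5. Over the 18 of the 25 single-gene pairs with rates above 0 in every experiment, the mean log2 ratio was 1.91, 1.25, 1.36 and 1.65 in A to D. This gave 1.54 ± 0.297 (SD, n = 4), above 0 in 4 of 4, with p = 0.125 by exact sign flips, the smallest the design allows. The rule that kept the 18 acts on the tested values. It dropped, among others, miR-15b, miR-32 and miR-335, whose minor strand was lower in 4 of 4. Also dropped were miR-140 and miR-424, whose minor strand was higher in 4 of 4. Taken over all miRNAs, 11 of 31 minor strands and 4 of 118 major strands exceeded 1%, with medians of 0.473% and 0.159%.

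miR-30e showed the largest ratio of the single hairpins with both rates above 0. miR-30e-3p, with 1133 CPM in Control, had 1.06% ± 0.169 and miR-30e-5p, with 22719 CPM, had 0.0158% ± 0.00771, a ratio of 67.3. Both are cut from MIR30E in an intron of NFYC, a subunit of the CCAAT-binding factor NF-Y (chr1:40754413-40754434 and chr1:40754371-40754392, plus strand). In miR-25 the ratio was 17.5, with 3.42% for the minor miR-25-5p and 0.195% for miR-25-3p, in miR-331 13.1, in miR-455 10.1, in miR-27b 9.80 and in miR-93 9.30. In each of these 6 hairpins the minor strand was higher in 4 of 4 experiments. For the major strand miR-455-3p, fewer conversions than converted reads were listed in DMSO. They were 103 for 240 reads in A, 97 for 241 in B, 53 for 119 in C and 50 for 131 in D. The part of this in the miR-455 ratio was not tested. For miR-25-3p, 1.30% to 1.67% of Control reads already carried a conversion, against 2.37% to 3.41% in DMSO. The oncogenic miR-21-5p was at 0.308% ± 0.0533 and its minor strand miR-21-3p at 1.20% ± 0.302, a ratio of 3.91 (n = 4).

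miR-122 went the other way. The major strand miR-122-5p, in an exon of MIR122HG (chr18:58451088-58451109, plus strand), rose from 0.0413%, 0.0442%, 0.0476% and 0.0340% to 0.286%, 0.325%, 0.370% and 0.311%. miR-122-3p, at 3373 to 5777 CPM itself an abundant miRNA, had no conversion in Control and 0.0391%, 0.0184%, 0.0429% and 0.0243% with 4SU. It thus rose at least 16.8-fold, with 3 conversions over the 4 Control libraries as the floor, but stayed at 0.111 of the miR-122-5p rate, and lower in 4 of 4 experiments. miR-15b, miR-22, miR-32, miR-335 and miR-339 were the other hairpins with a lower minor strand in every experiment. The strand roles of miR-32 hold for Control reads only. In DMSO A to D its minor strand miR-32-5p had 268, 334, 377 and 226 CPM, more than the 216, 245, 219 and 210 CPM of miR-32-3p. In miR-140 the 2 strands were the reverse of each other in detection, with miR-140-5p at 0.118% ± 0.0136 and miR-140-3p without a conversion. The hairpins miR-18a, miR-28, miR-99b, miR-130b, miR-374a and miR-374b had strands whose order changed between experiments.

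miRNAs with the same seed differed in labelling, at the median less than miRNAs with different seeds. Among members with a sequence, 20 seeds were shared by 50 miRNAs. In 11 of the 20 families the 4 values of the highest and of the lowest member did not overlap. The highest and lowest were picked by these same values, and the share among miRNAs with different seeds was not computed. Over the miRNAs with a rate above 0, the median difference within a seed was 1.13 on the log2 scale (40 pairs). Over 9005 pairs with different seeds it was 1.76. Pairs with let-7e-5p or miR-26a-5p, whose rates were below 0, are thus not included. The AUUGCAC family spanned 96.0-fold, from miR-92b-3p at 2.94% through miR-25-3p at 0.195% and miR-92a-3p at 0.174% ± 0.0131 to miR-32-5p at 0.0306% ± 0.0274, whose difference from Control did not pass (edgeR adjusted p = 0.0759). miR-92b-3p comes from its own gene, MIR92B (chr1:155195237-155195258, plus strand, in an exon of the lncRNA THBS3-AS1). Counted from the 5′ end, its sequence differs from that of miR-92a-3p by U10C, G21C and U22C.

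The GUAAACA family spanned 92.4-fold, from miR-30a-5p at 1.46% ± 0.226 through miR-30c-5p at 0.131% ± 0.0210 to miR-30e-5p at 0.0158%. miR-30b-5p, without a conversion, belongs to the same miR-30 family. miR-30a-5p is made from MIR30A in an intron of LINC00472 (chr6:71403595-71403616, minus strand). It differs from miR-30e-5p only by U13C, so a miR-30e-5p read converted at base 13 has the sequence of miR-30a-5p. With no other conversion, such a read would show no T>C conversion against the miR-30a-5p sequence. In Control miR-30e-5p had 22719 CPM and miR-30a-5p 523 CPM, and with 4SU miR-30a-5p had 684 CPM. The part of converted miR-30e-5p reads in the miR-30a-5p values was not tested. The same relation holds for miR-27b-3p and miR-27a-3p (U19C), at 0.0785% and 0.129%, and for miR-19a-3p and miR-19b-3p (U11C), at 0.0681% and 0.164%. In all 3 pairs the sequence with C had the higher rate. miR-26b-5p and the slow miR-26a-5p differ by U11C and U21C.

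Other families of at least 3 were narrower. ACCCGUA, the miR-99 and miR-100 seed, was fast throughout, with miR-99b-5p at 0.546% ± 0.0400, miR-99a-5p at 0.455% ± 0.0476 and miR-100-5p at 0.248% ± 0.125. AGCAGCA, the miR-15 and miR-16 seed, ran from miR-16-5p at 0.274% ± 0.0658 down to miR-15b-5p at 0.104% ± 0.0386, and AAAGUGC, the miR-17 seed, from miR-20a-5p at 0.224% ± 0.0498 to miR-106b-5p at 0.0769% ± 0.0290. The let-7 family (GAGGUAG), known for its role in differentiation, was slow, and its 4 members overlapped: let-7g-5p at 0.0905% ± 0.108, let-7f-5p at 0.0399% ± 0.0433, let-7a-5p at 0.0324% ± 0.0210 and let-7e-5p at -0.0172% ± 0.107 (SD, n = 4).

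The 14 seeds shared by 2 miRNAs held further contrasts. In 6 of them, part of the count of families given above, the 4 values of the members did not overlap. miR-125b-5p at 0.877% ± 0.154 exceeded miR-125a-5p at 0.266% ± 0.0218, and miR-1269a at 0.492% ± 0.105 exceeded miR-1269b at 0.122% ± 0.0699. The pairs miR-222-3p and miR-221-3p, miR-148a-3p and miR-148b-3p, and miR-23a-3p and miR-23b-3p differed 2.93-fold, 2.90-fold and 2.94-fold. miR-200b-3p at 0.365% ± 0.0937 and miR-200c-3p at 0.353% ± 0.123, which guard the epithelial state, were indistinguishable.

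The miR-181 genes were fast in every strand measured. Besides miR-181a-3p and miR-181a-2-3p, the major strands miR-181a-5p at 1.02% ± 0.159 and miR-181b-5p at 0.627% ± 0.148 ranked far above the median. Their 2 clusters lie in introns of MIR181A1HG on chromosome 1 and MIR181A2HG on chromosome 9, and since 85.6% of miR-181a-5p reads and 78.0% of miR-181b-5p reads mapped to more than 1 place, the 2 genes of each cannot be told apart. The opposite strands can: miR-181a-3p of MIR181A1 exceeded miR-181a-2-3p of MIR181A2 in 4 of 4 experiments, with 7.91% ± 0.925 against 3.76% ± 0.390.

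Most converted reads came from a few abundant miRNAs. Summed over the miRNAs, 14868 CPM carried a conversion above background. Newly made molecules without a conversion are not in this sum, and a read with more T positions is more likely to carry one. miR-21-5p alone gave 4461 CPM of these and held 23.4% of Control reads. miR-92a-3p gave 1940 CPM with 13.6% of Control reads, and miR-122-5p 1633 CPM with 7.42%. Their order among converted reads was thus that among all reads. miR-7-5p, a miRNA whose degradation is directed by the lncRNA Cyrano, came next with 1175 CPM, or 7.90% of converted reads, although it held only 2.43% of Control reads. miR-22-3p gave 2.09% of converted and 1.09% of Control reads, and miR-181a-5p 1.95% and 0.520%. The 10 largest contributors, with miR-16-5p, miR-194-5p, miR-425-5p and miR-148a-3p, gave 75.3% of converted reads and held 58.5% of Control reads. The 16 miRNAs over 1% gave 6.77% of converted and held 1.44% of Control reads.

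miR-7-5p was the fastest of the 10 most abundant miRNAs. Its rates without 4SU were 0.0149%, 0.0133%, 0.0197% and 0.00901%, and with 4SU 0.541%, 0.488%, 0.770% and 0.587%. The difference was 0.582% ± 0.119 (SD, n = 4, edgeR adjusted p = 2.43e-14). Among the others miR-21-5p had 0.308%, miR-122-5p 0.281% ± 0.0317, miR-16-5p 0.274% and miR-92a-3p 0.174%, while miR-103a-3p, miR-24-3p, miR-30e-5p and miR-26a-5p were below 0.1%.

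The counts of the lists below stand beside 132 of 164 (80.5%) over all miRNAs. Of the hepatocyte list, all 4 miRNAs had a higher rate with 4SU, with a median of 0.146%: miR-122-5p at 0.281%, miR-194-5p at 0.176% ± 0.0347, miR-192-5p at 0.116% ± 0.0174 and miR-122-3p at 0.0312%. Of 8 miRNAs known as targets of directed degradation, in which a paired transcript triggers decay of the miRNA, 7 were measured and 6 were higher, with a median of 0.183%. In this list miR-7-5p was highest and miR-503-5p next at 0.367% ± 0.169, miR-222-3p had 0.199% ± 0.0506, miR-424-5p 0.183% ± 0.177, miR-221-3p 0.0680% ± 0.0522 and miR-30b-5p no conversion. Of 13 strands listed for the MYC-driven polycistrons 12 were measured and 10 were higher, with a median of 0.166%. The strands of that list ranged widely, from miR-25-5p at 3.42% to both strands of miR-18a, which did not pass (miR-18a-5p at 0.0665% ± 0.0632 and miR-18a-3p at 0.0546% ± 0.0492). Of 9 let-7 and miR-98 strands 4 were measured and 2, let-7a-5p and let-7g-5p, were higher, with a median of 0.0361%. The median of all 164 miRNAs was 0.169%. The let-7g-5p call was lost in 6 of 10 alternative fits and that of let-7a-5p in 4 of 11.

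Total reads of most miRNAs differed little after 4 h of 4SU. The edgeR quasi-likelihood test with the experiment as a block called 70 of 518 miRNAs tested (13.5%), 24 higher (4.63%) and 46 lower (8.88%). Of the 164 miRNAs, 15 were higher and 16 lower, the median log2 fold change was 0.04 over the 164 and 0.05 over all tested. Since a miRNA had to exceed 100 CPM in all 8 libraries, those that fell below it are not among the 164: 7 exceeded the level in the 4 Control libraries only, of which 3 were called lower, and 4 in the 4 DMSO libraries only, of which 1 was called higher. Without the block 2 of the 164 were higher and 10 lower. The rises depended on single experiments, with 4 without experiment B and 3 without C, against 10 and 12 falls.

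The falls were mostly minor strands. 12 of the 16 miRNAs with fewer reads were minor strands, 2 were major strands (miR-32-3p and miR-345-5p) and 2 have no strand in their name, while 13 of the 15 with more reads were major strands. Of all 164, 118 were major and 31 minor strands (18.9%). Outside the 164, 27 of 30 miRNAs with fewer reads were minor strands, against 115 of the 354 tested there (32.5%). Of the 16 miRNAs over 1%, 9 had fewer reads and 2 more, with a median log2 fold change of -0.45. Of the other 148, 7 had fewer and 13 more, with a median of 0.05. The 2 measures are not independent, because the covered T positions of the same DMSO reads are the denominator of the rate. A loss of reads without a conversion would thus raise the rate. Its part in the high rates and in the strand ratios was not tested.

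miR-4521 fell most. It had 1124, 673, 880 and 840 CPM in Control and 275, 151, 150 and 149 CPM in DMSO for A to D, a log2 fold change of -2.28 (SE 0.10, edgeR adjusted p = 5.43e-07). miR-92a-1-5p fell from 729, 456, 642 and 685 CPM to 170, 115, 161 and 182 CPM (log2 fold change -1.98, SE 0.09). Both groups were far apart in all 4 experiments. miR-27b-5p had 541 to 694 CPM in Control and 145 to 184 CPM in DMSO (-1.86, SE 0.09), and miR-21-3p had 2426, 2302, 1724 and 1492 CPM and then 629, 892, 708 and 541 CPM (-1.49, SE 0.12). In these 2 as well the groups did not overlap. The major strands of the same hairpins did not follow, with log2 fold changes of 0.08 for miR-92a-3p, -0.09 for miR-27b-3p and -0.21 for miR-21-5p, none past the threshold. miR-148a-5p (-1.09), miR-125b-2-3p (-0.80), miR-374b-3p (-0.78) and miR-181a-3p (-0.72) were the other large falls, and all 4 passed in each of 11 alternative fits.

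Rises were smaller. miR-374b-5p had the largest estimate, with 330, 671, 846 and 626 CPM in Control and 894, 1180, 1106 and 678 CPM in DMSO, a log2 fold change of 0.71 (SE 0.16, edgeR adjusted p = 0.0226). Its groups overlapped, and most of the change was in experiment A. miR-92b-3p had 457 to 538 CPM in Control and 683 to 889 CPM in DMSO (0.67, SE 0.08, edgeR adjusted p = 0.000808). miR-130a-3p had 743 to 946 CPM and 1132 to 1320 CPM (0.50, SE 0.07, edgeR adjusted p = 0.00151). Neither overlapped between the groups. These last 2 passed in each of 11 alternatives. miR-10b-5p (0.54), miR-32-5p (0.46), miR-122-3p (0.43), miR-30a-5p (0.42) and miR-374a-5p (0.41) made up the rest of the 8 largest. Of the 11 alternatives, the call was lost in 5 for miR-32-5p and miR-30a-5p, in 4 for miR-374b-5p and miR-122-3p, in 3 for miR-10b-5p and in 1 for miR-374a-5p. In miR-32 and miR-374b the 2 strands moved apart, miR-32-3p falling by 0.60 on the log2 scale while miR-32-5p rose, and miR-374b-3p falling while miR-374b-5p rose.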

How the data were processed

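Total RNA of Huh7 cells was alkylated with iodoacetamide, small RNA libraries were made from it and sequenced, and the authors, after trimming, aligned reads to GRCh38 with the nf-core SLAMseq pipeline 1.0.0 (SLAM-DUNK), keeping multi-mapping reads, masking positions called as SNPs and counting on miRBase 22 mature coordinates. DMSO A and B each combine 3 sequencing runs. The paper states that, for miRNA reads, a default filter on how well a read maps overrides the chosen limit on mismatches. Its effect on reads with several conversions, and so on rates and read counts, was not tested. The deposited tables hold counts of reads, multi-mapping reads, reads with a T>C conversion, conversions and covered T positions per mature miRNA. They also hold the authors' CPM (reads scaled by the library total) and T>C rate as a fraction, shown here in percent. It was checked that CPM and rate follow from the counts. Sums over the genomic copies of a miRNA are the authors'.

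Reads were tested with edgeR 4.0.16 in R 4.3.3 (TMM, filterByExpr, 518 miRNAs, experiment as block) and conversions with log covered T positions as the offset and no block (164 miRNAs), by quasi-likelihood tests with Benjamini-Hochberg adjustment and a threshold of 0.05. A minor strand is the strand of a hairpin with fewer Control reads. Both tests were checked on simulated data. RLE factors, DESeq2 1.42.0, other filters, other blocks, converted reads in place of conversions and fits leaving out each experiment were the alternatives. The rest was computed in Python 3.11.15 (pandas 2.3.3, numpy 2.4.6 and scipy 1.17.1), with matplotlib 3.10.9 for the plots. RefSeq held the sequence of 146 of the 164 miRNAs, and the host genes are those of GENCODE 44 on GRCh38.

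The methods describe 4 independent experiments with both conditions in each. Deviations of log2 CPM from the condition mean correlated between Control and DMSO of the same experiment with r = 0.495, 0.821, 0.277 and 0.626 for A to D, and those of rates with -0.129 to 0.152. Since reads carried no molecular identifiers in the counting, PCR copies of a molecule count separately.

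The miRNAs and lists were chosen with earlier results of these data known. Named were the 10 highest rates, the 10 lowest with at least 100000 covered T positions, the 10 with most reads, the 10 with most converted reads above background, the 8 largest read changes past the threshold in each direction, miRNAs with a lower rate, hairpins with both strands among the 164, the extremes of seed families with at least 3 members, and the lists of hepatocyte, degradation, polycistron and let-7 miRNAs. Any other miRNA named, such as those without a conversion, was chosen after its values were seen.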

Additional observations from a re-analysis of the deposited data

Results flagged for a closer look

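In 5 of the 90 named miRNAs, 1 experiment lay far from the other 3 in background-subtracted rate by Dixon's test for 4 values, which chance does for about 1 in 20 groups. For miR-92b-3p experiment B had 2.55%, against 3.04% to 3.12% in the others. For miR-30e-5p experiment C had 0.00427%, against 0.0184% to 0.0206%. For miR-21-3p experiment A had 1.66%, against 1.03% to 1.08%. For miR-423-5p experiment C had 0.234%, against 0.302% to 0.313%. For let-7e-5p experiment D had -0.177%, against 0.0267% to 0.0436%. The distant value came from experiment C in 2 of the 5 miRNAs and from A, B and D in 1 each.

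Outside the 164 miRNAs, miR-3124-3p had no read in any of the 4 Control libraries and 13.9, 16.8, 23.2 and 18.8 CPM in DMSO A to D, a mean of 18.2 CPM (edgeR adjusted p = 0.00135).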

How the results depend on the processing

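The counts of miRNAs with changed reads moved most. With no replicate block 2 were higher and 10 lower, against 15 and 16 with it, and leaving out both libraries of 1 experiment gave 3 to 19 higher and 10 to 13 lower. Experiment B or C left out gave 4 and 3 higher, and D left out 8. The miRNAs called without the block (12), without B (14), without C (15) and without D (21) were all among the 31 called with all experiments and the block. Without A 31 were called, of which 24 were among them, and without A and B 23, of which 17 were. Under RLE factors, DESeq2, the other filters and all 12 libraries the counts stayed within 1.5 times. Conversions were called higher in 119 miRNAs with the replicate block and in 122 to 126 with 1 experiment left out. The number was 96 without A and B, the experiments whose DMSO libraries combine original, re-prepared and re-amplified libraries. Restricted to the 60 miRNAs over 1000 CPM it was 55. miR-26a-5p was lower in every one of these fits. The mean background-subtracted rate of 0.435% became 0.240% with pooled conversions, 0.210% over miRNAs above 1000 CPM and 0.497% over the 129 miRNAs with under 10% multi-mapping reads, and ranged from 0.427% to 0.442% with 1 experiment left out. The minor strand was higher in 15 hairpins, and in 13 to 17 under the alternatives. Of the named miRNAs no call reversed. Of 990 alternative values for reads 65 lost and 19 gained a call, and of 939 for conversions 33 lost and 5 gained one. The cause of these changes was not tested. Depth limits the low rates: where Control or DMSO had no conversion, only the limit of 3 counts can be given.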
